A study of Homo sapiens with 12 samples.

Results

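The BCL2 apoptosis family was followed through RNA-seq of U937 cells, a human myelomonocytic leukemia line, as 10 genes: BCL2, BCL2L1, MCL1, BCL2A1, BCL2L11, BAX, BAK1, BBC3, PMAIP1 and BID. All rows of the expression matrix that carry one of these symbols were taken. They came to 82 of 197782 transcripts, of which 23 had at least 1 read and 11, from 8 genes, reached 10 normalized reads in 3 or more libraries and were tested. BCL2A1 and BCL2L11 had no transcript above this level. The study asked how decitabine (DAC), a nucleoside analog that depletes DNA methyltransferases, and all-trans retinoic acid (ATRA), the ligand of the retinoic acid receptors, change transcription alone and together. There were 12 libraries in 4 groups of 3: untreated cells, labelled 96 h, and cells labelled 72 h that received DAC (200 nM), ATRA (1 µM) or both agents at these doses (DAC + ATRA). The labels give growth with 20% FCS and 5 ng/ml GM-CSF for all groups, whereas the study's methods give 10% FCS and name no GM-CSF. The design text and the study's methods describe a harvest at 72 h with no separate time for controls, so the labels and these texts differ for untreated cells. If the labels hold, time and treatment cannot be told apart in comparisons with them. The design text describes technical triplicates, a term that the study's methods for RNA-seq do not use. All libraries come from 1 cell line, so the p-values measure only the spread between these libraries.

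BCL2 family proteins set the threshold for the mitochondrial route of apoptosis. BCL2, BCL-XL (from BCL2L1), MCL1 and BFL1 (from BCL2A1) hold the effectors BAX and BAK (from BAK1) in check, and the effectors, once active, oligomerize in the outer mitochondrial membrane and release cytochrome c. BH3-only proteins such as BIM (from BCL2L11), PUMA (from BBC3), NOXA (from PMAIP1) and BID carry the death signal to them. Myeloid leukemia cells often depend on BCL2 or MCL1, and BCL2 is the target of the drug venetoclax.

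The libraries held 8042435 to 10683593 counted reads, of which 36.3% to 42.5% were mitochondrial, and 3 reads correspond to 2.50 to 3.71 normalized reads. Of 8 myelomonocytic markers 7 had reads and PTPRC, the gene of the leukocyte antigen CD45, had none. A count of 0 need not mean that a gene is silent, since transcripts without bases of their own rarely had reads, as given below. The summed level of the myelomonocytic markers was 57581 to 64419 normalized reads in untreated cells, 34439 to 50359 with DAC, 36667 to 53628 with ATRA and 28776 to 31273 with DAC + ATRA. The erythroid markers were at 0 throughout, and the 3 T-cell and 3 epithelial markers summed to at most 14.8 and 9.96. The 3 B-cell markers summed to 133 to 143 in untreated cells, 519 to 533 with DAC, 229 to 374 with ATRA and 1315 to 1394 with DAC + ATRA. Of the fibroblast markers DCN was at 0, and the 3 summed to 14.6 to 21.2 in untreated cells, 211 to 274 with DAC, 48.6 to 54.6 with ATRA and 128 to 164 with DAC + ATRA. The part of these shifts in the results on the BCL2 family was not tested. In bulk RNA a smaller number of cells of a type and less RNA per cell cannot be told apart.

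Each row of the matrix is a transcript, and the sources used here do not say how reads that fit several transcripts of a gene were counted. Of transcripts whose bases are all shared with other transcripts of the same strand in GENCODE 44, 2.03% had at least 10 reads over the 12 libraries, against 33.5% of those with bases of their own. Most reads of a BCL2 family transcript are therefore read here as lying in the stretch that it does not share. For BCL2 (chromosome 18, minus strand, ENST00000398117.1) this was 580 bases of the 5′ untranslated region, and for BCL2L1 (chromosome 20, minus strand, ENST00000422920.1) 556 bases of the 5′ untranslated region. For BAX (chromosome 19, plus strand, ENST00000293288.12) it was 334 bases of its 3′ untranslated region, at chr19:48961198-48961531. Other BAX rows, such as ENST00000502487.5, extend past this stretch without holding it, so it is intronic in those forms. PMAIP1 (chromosome 18, plus strand, ENST00000316660.6) rested on 788 untranslated bases. The leading rows of MCL1 (chromosome 1, ENST00000464132.1), BBC3 (chromosome 19, ENST00000598636.1) and BID (chromosome 22, ENST00000494097.5) are annotated as retained introns, with 351, 435 and 1018 intronic bases of their own. On this reading these rows measure mainly intron-containing RNA of the genes and not their coding mRNA. The authors' annotation release is not given in the sources used here, and 23 of the 82 transcripts have another version and 15 no entry in GENCODE 44, so these stretches are approximate. Levels were not compared between genes.

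Only 42 bases were counted for BAK1 alone (chromosome 6, minus strand, ENST00000442998.6), and 20 of them form a coding exon, the fifth of 7, that no other BAK1 transcript of the matrix with an entry in GENCODE 44 shares. This exon lies at chr6:33574506-33574525 of hg38 and is printed in capitals between 20 intronic bases on each side, with the splice acceptor ag before it and the donor gt after it. The BAX row ENST00000513217.1 has 345 bases of its own in an intron, of which the first 300 are at chr19:48955853-48956152. They are shown because the only call on a BAX row annotated as a retained intron rests on this stretch. CpG dinucleotides in it are in capitals.
BAK1 exon: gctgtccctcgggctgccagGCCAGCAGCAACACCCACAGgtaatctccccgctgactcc
BAX intron: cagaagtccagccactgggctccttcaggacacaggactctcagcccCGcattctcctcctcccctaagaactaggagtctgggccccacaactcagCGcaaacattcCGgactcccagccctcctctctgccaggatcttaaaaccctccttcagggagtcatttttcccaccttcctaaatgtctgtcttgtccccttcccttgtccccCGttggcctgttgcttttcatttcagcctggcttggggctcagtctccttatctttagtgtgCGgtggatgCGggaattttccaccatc

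DNA methylation, which DAC lowers, occurs at CpG dinucleotides, and the windows from 250 bases before to 50 bases after RefSeq gene starts (GRCh38.p14) were searched for them. The set of RefSeq windows used here held 9 of the 10 genes, 14 windows in all, and had no entry for MCL1. CpG pairs numbered 42 in the window of PMAIP1, 39 in BCL2L11, 38 in BAX, 31 in BCL2, 6 to 37 in the 5 windows of BID, some of which overlap, 20 and 16 in BCL2L1, 7 in BAK1, 5 in BBC3 and 2 in BCL2A1, against a median of 14 over all 35116 windows. The motif GGGCGG, which itself holds a CpG, was found on either strand in 9 of the 14 windows and in 45.0% of all windows. CCAAT was found in 4 of the 14 and 34.6% of all, and TATAAA in the BCL2A1 window and 1 BCL2L1 window and 11.5% of all. Such matches describe the letters only. The 250 bases before the start are printed, with CpG pairs in capitals, for the upstream start of BCL2L1 (chr20:31723964-31724213) and for BAK1 (chr6:33580277-33580526), whose transcripts were higher with DAC + ATRA, and for BCL2A1 (chr15:79971197-79971446), which had almost no reads. All 3 lie on the minus strand and are written 5′ to 3′. They precede RefSeq starts and not those of the measured transcripts, whose GENCODE 44 entries begin at position 31723529 for BCL2L1, downstream of its window, and at 33580293 for BAK1, inside its window.
BCL2L1: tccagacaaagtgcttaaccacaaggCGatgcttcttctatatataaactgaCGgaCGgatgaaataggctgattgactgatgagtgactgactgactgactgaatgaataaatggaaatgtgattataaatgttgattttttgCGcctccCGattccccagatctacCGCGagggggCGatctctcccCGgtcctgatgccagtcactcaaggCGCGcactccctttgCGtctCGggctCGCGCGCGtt
BAK1: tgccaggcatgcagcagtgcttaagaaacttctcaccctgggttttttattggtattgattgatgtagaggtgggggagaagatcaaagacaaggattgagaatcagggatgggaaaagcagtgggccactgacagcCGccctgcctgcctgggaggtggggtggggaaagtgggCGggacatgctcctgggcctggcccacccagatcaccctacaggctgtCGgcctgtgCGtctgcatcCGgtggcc
BCL2A1: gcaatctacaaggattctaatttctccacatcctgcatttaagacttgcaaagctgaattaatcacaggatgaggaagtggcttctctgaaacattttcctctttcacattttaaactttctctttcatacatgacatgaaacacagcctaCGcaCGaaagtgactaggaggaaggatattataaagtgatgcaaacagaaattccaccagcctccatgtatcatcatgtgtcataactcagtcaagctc

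BCL2, the antiapoptotic founder of the family, was lower wherever DAC was given. Its leading transcript had 4019, 3527 and 3656 normalized reads in the untreated libraries and 2231, 1574 and 1545 with DAC. With ATRA it had 4162, 3583 and 3421, and with DAC + ATRA 1410, 1528 and 1641. The 6 libraries with DAC all lay below the 6 without it. BCL2 fell by 1.08 on the log2 scale with DAC (SE 0.12, limma adjusted p = 3.71e-08), to 1783 ± 388 (SD, n = 3) from 3734 ± 255, which is 2.12-fold lower. The level with ATRA alone was 3722 ± 389, a log2 difference of -0.01 (95% interval -0.25 to 0.24, adjusted p = 0.995). With DAC + ATRA it fell by 1.29 (SE 0.12, adjusted p = 1.22e-09) against untreated and by 1.28 against ATRA (adjusted p = 2.12e-09). Both falls were called in all 24 alternatives of processing, as was the fall with DAC. Against DAC alone the difference was -0.21 (95% interval -0.45 to 0.04, adjusted p = 0.301). All log2 fold changes are on the scale of log2(normalized read count + 1), and adjusted p-values are from limma with Benjamini-Hochberg adjustment over all 19373 transcripts tested, with a call at an adjusted p under 0.01.

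The second BCL2 transcript, ENST00000589955.2, is a shorter form of 1 exon that runs into the intron of the longer one, with 4280 bases of its own, 4250 of them untranslated. It had 320, 255 and 257 normalized reads in untreated cells, 171, 143 and 143 with DAC, 280, 245 and 196 with ATRA, and 103, 96.8 and 124 with DAC + ATRA. It fell by 0.85 with DAC (SE 0.15, adjusted p = 5.44e-05), by 1.35 with DAC + ATRA (adjusted p = 3.93e-08) and by 1.14 with DAC + ATRA against ATRA (adjusted p = 9.96e-07), each in all 24 alternatives. Against DAC alone DAC + ATRA was lower by 0.50 in the fit (95% interval -0.81 to -0.18) with no overlap of the groups, and this did not pass the test (adjusted p = 0.0274). The counts of the shorter transcript came to 7.02% to 7.96% of those of the longer in untreated cells, 7.66% to 9.28% with DAC, 5.72% to 6.83% with ATRA and 6.34% to 7.53% with DAC + ATRA. These shares compare stretches of unequal length and are no ratio of molecules.

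**Figure D1:**
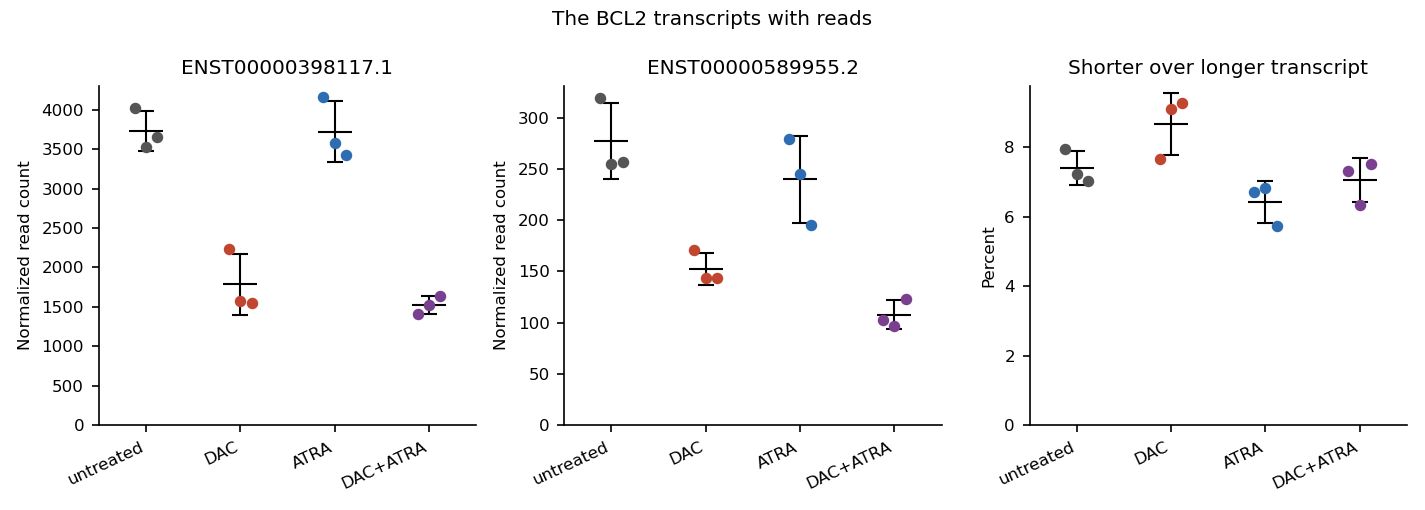
Normalized read counts of the BCL2 transcripts with reads and the shorter as a percent of the longer, in 3 libraries per group (points), with the group mean (wide bar) and SD (whiskers). The longer transcript sits between 1410 and 2231 in the 6 libraries with DAC and between 3421 and 4162 in the other 6.

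BCL2L1, the gene of antiapoptotic BCL-XL, moved opposite to BCL2. It had 147, 113 and 115 normalized reads in untreated cells, 187, 179 and 211 with DAC, 182, 183 and 128 with ATRA and 222, 251 and 220 with DAC + ATRA. The untreated libraries lay below all libraries with DAC, while those with ATRA alone overlapped both. BCL2L1 rose by 0.62 with DAC (SE 0.15, adjusted p = 0.00169) and by 0.89 with DAC + ATRA (SE 0.15, adjusted p = 2.73e-05), which is 1.54-fold and 1.85-fold. The first call was lost without untreated library 2 (adjusted p = 0.0143) or 3 (0.0121) or DAC library 6 (0.0127), and the second was kept in all 24 alternatives. ATRA alone gave 0.38 (95% interval 0.07 to 0.70, adjusted p = 0.123). Against ATRA, DAC + ATRA gave 0.51 and narrowly missed the threshold (adjusted p = 0.0101), which 7 of 24 alternatives passed, among them the fits without untreated library 1 (0.00869) or ATRA library 7 (0.00812) or 8 (0.00795). Of the 556 bases counted for this transcript 436 lie under transcripts of the opposite strand. The libraries were made strand-specific, and whether the counting used strand is not given in the sources used here. Among GENCODE 44 transcripts with at least 100 bases of their own, those whose own bases were all under opposite-strand transcripts had at least 10 reads as often, in 40.0%, as those with none there, in 40.8%. The other BCL2L1 transcript with reads had 1 read in all.

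For MCL1, the short-lived antiapoptotic protein of myeloid cells, the tested row was a retained intron. It had 57.9, 42.8 and 42.5 normalized reads in untreated cells, 77.8, 61.4 and 89.6 with DAC, 47.5, 51.0 and 46.6 with ATRA and 87.7, 79.0 and 70.4 with DAC + ATRA. All libraries with DAC were above all without it. MCL1 intronic RNA rose by 0.66 with DAC (SE 0.19, adjusted p = 0.00571), by 0.73 with DAC + ATRA (adjusted p = 0.00227) and by 0.69 with DAC + ATRA against ATRA (adjusted p = 0.00459). The call with DAC was lost in 9 of 23 alternatives, including DESeq2 (adjusted p = 0.0129), library-size scaling (0.0297), no filter (0.0199), only the groups compared (0.0102) and the fits without untreated library 2 (adjusted p = 0.0315) or 3 (0.0322) or DAC library 4 (0.0185) or 6 (0.0438). The call with DAC + ATRA was lost without untreated library 2 (0.0150) or 3 (0.0151) or DAC + ATRA library 10 (0.0161) and under library-size scaling (0.0167). That against ATRA was lost without library 7 (0.0141), 9 (0.0124), 10 (0.0285) or 11 (0.0163), under library-size scaling (0.0158) and without a filter (0.0151). Over all 4386 retained introns tested the median log2 fold change with DAC was -0.21, and over 8784 protein-coding transcripts 0.22. A coding MCL1 transcript with 128 bases of its own had 0 reads in the untreated libraries and at most 7 in any library, and was not tested.

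BCL2A1 encodes the inducible antiapoptotic protein BFL1. Its 2 transcripts had 24 and 2 reads over the 12 libraries and at most 5 in one, on 27 and 56 bases of their own. The more abundant had 0 to 1.85 normalized reads in untreated cells, 1.95 to 3.24 with DAC, 0 to 2.11 with ATRA and 1.05 to 4.94 with DAC + ATRA. The DAC libraries lay above the untreated ones by a few reads at most, and BCL2A1 was not tested.

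Of the effectors, BAX was higher with DAC and with both agents, on bases that are intronic in other BAX forms. Its leading transcript had 133, 140 and 140 normalized reads in untreated cells, 192, 194 and 209 with DAC, 174, 204 and 137 with ATRA and 208, 261 and 211 with DAC + ATRA. The untreated libraries lay closely together and below every library with DAC, and those with ATRA spread from the untreated to the DAC level. BAX rose by 0.52 with DAC (SE 0.15, adjusted p = 0.00519), 1.44-fold, and by 0.71 with DAC + ATRA (SE 0.15, adjusted p = 0.000245), 1.63-fold. The call with DAC + ATRA was kept in all 24 alternatives. That with DAC alone was lost in 9 of 24, including the fits without any 1 of its 6 libraries (adjusted p from 0.0108 without DAC library 4 to 0.0239 without DAC library 6). ATRA alone gave 0.30 (95% interval -0.01 to 0.60, adjusted p = 0.233). Against ATRA, DAC + ATRA gave 0.41 (adjusted p = 0.0278), with 0.54 without ATRA library 8 (adjusted p = 0.00829) and 0.26 without ATRA library 9 (adjusted p = 0.159).

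The remaining tested rows of BAX are annotated as retained introns. ENST00000502487.5 had 60.1 to 63.4 normalized reads in untreated cells, 76.0 to 89.6 with DAC, 59.1 to 87.4 with ATRA and 70.5 to 80.3 with DAC + ATRA. None of its differences passed the test, and the log2 differences from untreated were 0.37, 0.27 and 0.24. ENST00000513217.1, whose intronic bases are printed above, had 16.5, 16.4 and 19.4 in untreated cells, 30.3, 19.5 and 27.9 with DAC, 27.5, 21.8 and 18.3 with ATRA and 37.1, 30.5 and 27.2 with DAC + ATRA. It rose by 0.81 with DAC + ATRA (SE 0.25, adjusted p = 0.00867), a call that 11 of 23 alternatives kept. Without untreated library 1, 2 or 3 or DAC + ATRA library 10, 11 or 12 the adjusted p was 0.0105 to 0.0478, and without ATRA library 8 it was 0.0101. A further BAX row, ENST00000356483.8, annotated as subject to nonsense-mediated decay and with 98 intronic bases of its own, had 58 reads over the 12 libraries and was below the filter. It had 0 to 3.68 normalized reads in untreated cells, 3.24 to 6.97 with DAC, 0 to 3.33 with ATRA and 8.42 to 12.7 with DAC + ATRA, where its libraries lay above the other 9. The log2 ratio of the leading BAX to the leading BCL2 transcript was -4.90 to -4.64 in untreated libraries, -3.53 to -2.88 with DAC, -4.63 to -4.13 with ATRA and -2.95 to -2.55 with DAC + ATRA. Only its shifts between groups carry meaning, since the counted stretches differ in length and the BAX stretch is missing from other BAX forms.

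BAK1, the gene of the effector BAK, had its highest counts with DAC + ATRA, on few reads. Only 1 of its 3 rows had reads, the form with the 20-base exon, so other BAK1 forms were not measured. This form had 12.9, 20.9 and 14.8 normalized reads in untreated cells, 19.5, 23.4 and 25.9 with DAC, 19.0, 19.1 and 25.8 with ATRA and 47.9, 46.3 and 35.8 with DAC + ATRA. All 3 DAC + ATRA libraries lay above the other 9. BAK1 rose by 1.38 with DAC + ATRA (SE 0.25, adjusted p = 5.55e-05), 2.61-fold, in all 24 alternatives. It rose by 0.99 against ATRA (SE 0.25, adjusted p = 0.00258), a call lost without ATRA library 7 (0.0127) or 8 (0.0128) or DAC + ATRA library 10 (0.0164) or 11 (0.0146). Against DAC the log2 difference was 0.89 (95% interval 0.37 to 1.41), which missed the threshold in limma (adjusted p = 0.0168) and passed it in edgeR (adjusted p = 0.00718). DAC alone gave 0.49 (adjusted p = 0.115) and ATRA alone 0.39 (adjusted p = 0.400). The interaction, the effect of both agents beyond the sum of the single effects on the log2 scale, was 0.50 (95% interval -0.24 to 1.24, adjusted p = 0.579). These values rest on 14 to 53 reads per library.

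**Figure D2:**
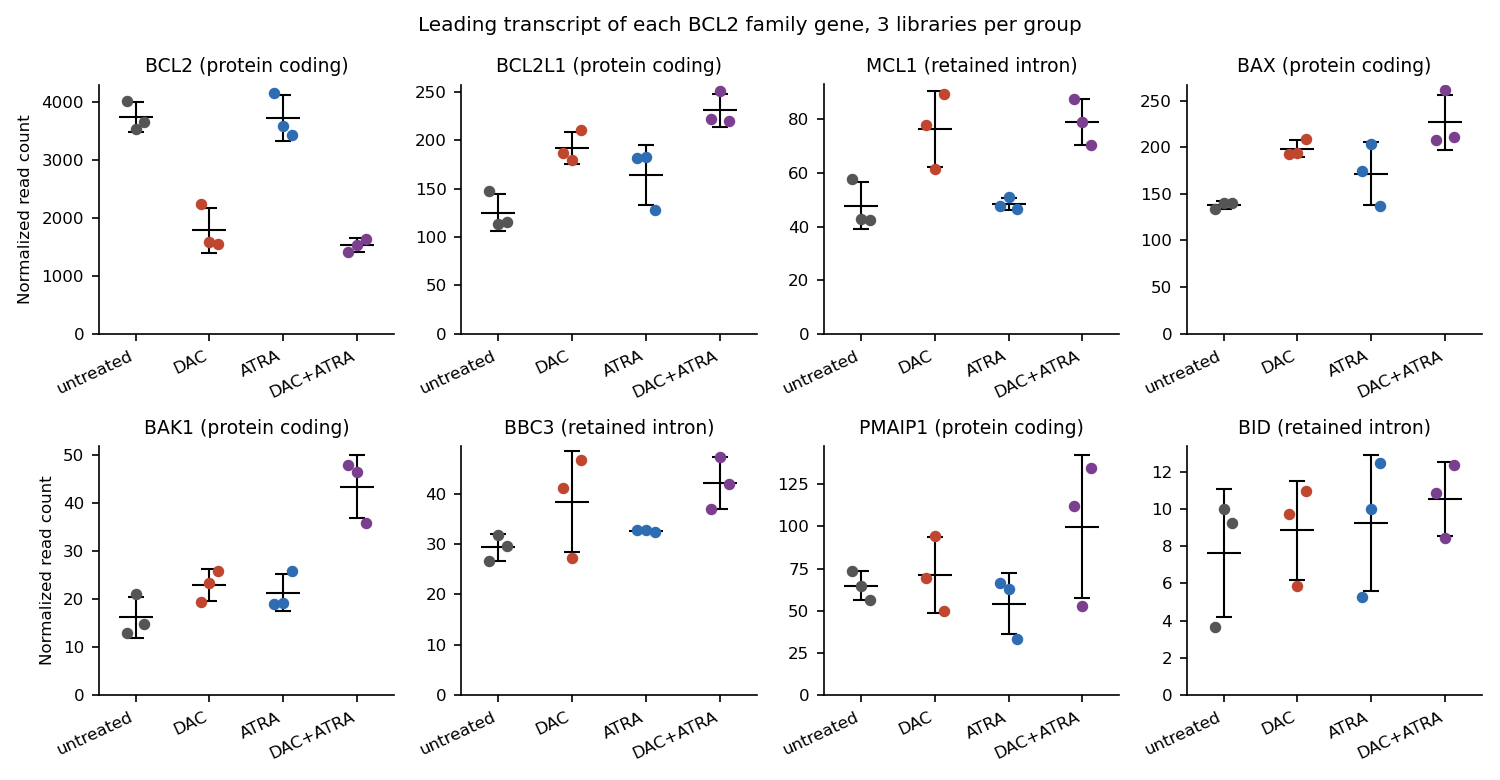
Normalized read counts (y axis, linear, from 0) of the leading transcript of the 8 tested genes in 3 libraries per group (points), with the group mean (wide bar) and SD (whiskers). BCL2 is low in the libraries with DAC, BCL2L1, MCL1 and BAX are high in them, and BAK1 is 35.8 to 47.9 with DAC + ATRA against at most 25.9 elsewhere.

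Of the BH3-only genes among the 10, PMAIP1, BBC3 and BID had a tested transcript and none passed the limma test in any comparison. An unadjusted p under 0.05 was found for PMAIP1 with DAC + ATRA against ATRA and for BBC3 with DAC + ATRA against untreated. PMAIP1, the gene of the MCL1-binding protein NOXA, had 73.5, 64.6 and 56.3 normalized reads in untreated cells, 69.2, 94.5 and 49.8 with DAC, 66.5, 62.8 and 33.3 with ATRA and 112, 52.6 and 135 with DAC + ATRA. DAC + ATRA library 11 was the lowest of its group and lay below all 3 untreated libraries. The log2 difference between DAC + ATRA and untreated was 0.52 (95% interval -0.17 to 1.21, adjusted p = 0.194) and against ATRA 0.83 (adjusted p = 0.0529). Without library 11 these were 0.92 (adjusted p = 0.00742) and 1.23 (adjusted p = 0.000936), and without ATRA library 9 the difference from ATRA was 0.51 (adjusted p = 0.250). The difference from ATRA passed in edgeR with the deposited size factors (adjusted p = 0.00818), in edgeR without library 6 (0.00775) and in limma without a filter (0.00138). The second PMAIP1 transcript, a retained intron, had 47 reads over all libraries and was not tested.

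BBC3, the gene of PUMA, was measured by a retained intron with 26.7 to 31.9 normalized reads in untreated cells, 27.3 to 46.8 with DAC, 32.5 to 32.8 with ATRA and 37.1 to 47.4 with DAC + ATRA. Its groups did not overlap between untreated and DAC + ATRA, and the log2 difference of 0.50 (95% interval 0.05 to 0.96) had an adjusted p of 0.0590. Its coding transcript had 40 reads and a further retained intron 32 over the 12 libraries. BID, whose protein is cleaved by caspase-8 and links death receptors to mitochondria, had 3.68 to 10.01 normalized reads of a retained intron in untreated cells, 5.85 to 10.96 with DAC, 5.28 to 12.5 with ATRA and 8.42 to 12.4 with DAC + ATRA. All 4 groups overlapped, and the 95% interval of the log2 difference between DAC + ATRA and untreated was -0.35 to 1.35. BID had 3 more transcripts with 6, 1 and 1 reads. BCL2L11, the gene of BIM, had 5 reads in all on 1 of its 23 transcripts, 4 of them with DAC, which is too few to compare. Of the 23 transcripts 9 have no entry in GENCODE 44, and transcripts without bases of their own rarely had reads. The count is therefore no measure of BCL2L11 RNA as a whole.

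Taken by comparison, 5 of the 11 transcripts, from 4 genes, passed the test with DAC against untreated, 3 higher and 2 lower, which is 45.5% where 33.5% of all tested transcripts passed. With DAC + ATRA against untreated 7 passed, from 5 genes, 5 higher and 2 lower, which is 63.6% where 41.6% of all passed. With DAC + ATRA against ATRA 4 passed, 2 in each direction, or 36.4% where 29.4% of all passed. The 11 transcripts include 2 of BCL2 and 3 of BAX, and these shares are not far above the background. With ATRA against untreated 0 passed in limma, and in edgeR and DESeq2, where 6.97% of all passed, and 1 had an unadjusted p under 0.05. With DAC + ATRA against DAC 0 passed in limma and DESeq2 and 1 in edgeR, where 8.77% of all passed, and 2 had an unadjusted p under 0.05. For the interaction 0 passed in limma, edgeR and DESeq2, where 1.51% of all passed, and 0 had an unadjusted p under 0.05. The median log2 fold change of the 11 transcripts was 0.37 for DAC, 0.27 for ATRA and 0.52 for both agents, beside 0.05, 0.00 and 0.05 over all tested. Scaling by library size lowered the median of all transcripts to -0.07 with DAC and -0.09 with DAC + ATRA, and no called transcript changed direction. On that scale 1 transcript was higher and 2 lower with DAC, 3 higher and 2 lower with DAC + ATRA, and 1 higher and 2 lower with DAC + ATRA against ATRA.

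**Figure D3:**
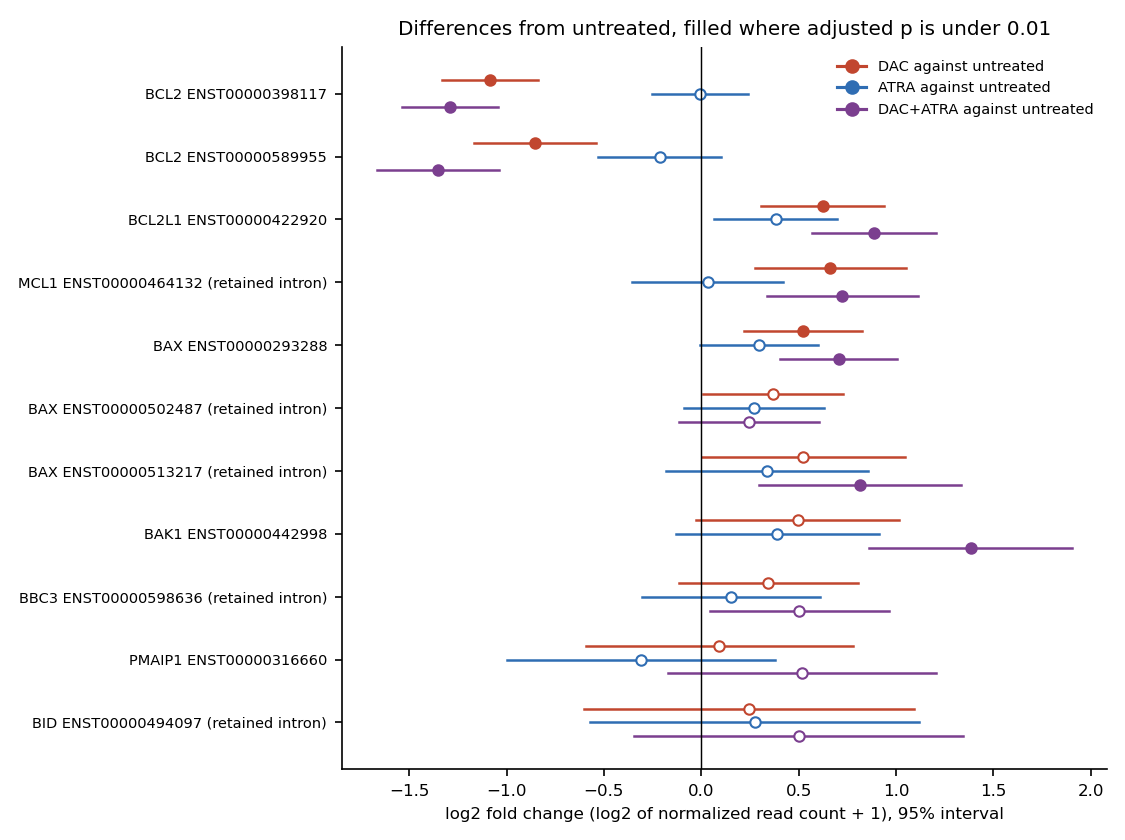
Log2 fold changes against untreated (x axis) of the 11 tested transcripts with 95% intervals, filled where the adjusted p is under 0.01. With DAC and with DAC + ATRA both BCL2 transcripts lie below 0 and the other 9 above it, and with ATRA alone no point is filled.

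Other genes of the pathway were read from 4 lists. Their medians stand beside 0.05, 0.00 and 0.05 over all tested transcripts. Of 13 further BCL2 family genes 8 had a tested transcript, 10 transcripts in all. With DAC 2 of the 10 passed, both higher, with ATRA 1, higher, and with DAC + ATRA 3, all higher, where 33.5%, 6.97% and 41.6% of all passed. BOK is among the calls with DAC and DAC + ATRA but was tested only through libraries with DAC, since it reached 10 normalized reads in no other, and its calls are no support. Apart from it 1 of 9 passed with DAC and 2 of 9 with DAC + ATRA. Among all transcripts that reached this level both with and without DAC, 4853 of 16874 and 6232 of 16874 passed. BIK, a BH3-only gene, had 187 ± 32.7 normalized reads in untreated cells (SD, n = 3), 817 ± 187 with DAC, 672 ± 114 with ATRA, and 1043 ± 47.7 when both were given. It rose by 2.11 with DAC (adjusted p = 3.83e-11), by 1.84 with ATRA (adjusted p = 2.03e-09) and by 2.49 with DAC + ATRA (adjusted p = 1.22e-12). BOK, an effector-like relative of BAX and BAK, had no read in any untreated or ATRA library, 93.0 to 196 normalized reads with DAC and 209 to 245 with DAC + ATRA. Against a floor of 3 reads per library it was at least 53.9-fold and 80.3-fold higher. The median log2 fold change of the list was 0.44 with DAC and 0.02 with DAC + ATRA, and the same with BOK at its bound. BAD, BMF, HRK, BCL2L10 and BCL2L14 had no tested transcript.

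Of 22 genes of the apoptosome, the caspases and their inhibitors 12 were tested, with 17 transcripts. With DAC 3 passed higher and 1 lower, or 4 of 17 where 33.5% of all passed. With DAC + ATRA 3 passed higher and 4 lower, or 7 of 17 where 41.6% of all passed, and with ATRA 0. The list median was 0.04 with DAC, -0.11 with ATRA and -0.38 with both. With ATRA edgeR and DESeq2 also called 0, and 3 had an unadjusted p under 0.05. Scaled by library size, 3 were higher and 4 lower with DAC, 0 higher and 1 lower with ATRA, and 1 higher and 6 lower when both were given. CASP9, the initiator caspase of the apoptosome, had 61.5 ± 3.39 normalized reads in untreated cells and 149 ± 5.199 with DAC + ATRA and rose by 1.26 (adjusted p = 7.03e-07). DIABLO, an antagonist of the inhibitors of apoptosis, rose by 0.90 with DAC (adjusted p = 0.000412). A retained intron of CASP2 fell by 0.93 with DAC (adjusted p = 0.000611) and by 1.22 with DAC + ATRA (adjusted p = 1.92e-05). Of the list, 10 genes had no tested transcript.

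Of 14 genes of the death receptor pathway 11 were tested, with 16 transcripts. With DAC 5 passed higher and 1 lower, or 6 of 16 where 33.5% of all passed. With DAC + ATRA 7 passed higher and 1 lower, or 8 of 16 where 41.6% of all passed, and with ATRA 0. Transcripts of TNFRSF10A, TNFRSF10B and TNFRSF10C are among both counts and reached 10 normalized reads in no library without DAC, so they were tested only through the others and their calls are no support. Apart from them 3 of 13 passed with DAC and 5 of 13 with DAC + ATRA. Among all transcripts that reached this level both with and without DAC, 4853 of 16874 passed with DAC and 6232 of 16874 with DAC + ATRA. Of all tested transcripts 1789 reached it only with DAC and made 1408 of the 6485 calls with DAC. None of the 11 family transcripts was among these 1789. The list median was 0.43 with DAC, 0.07 with ATRA and 0.61 with both. It keeps the transcripts tested only through libraries with DAC, so its values with DAC and with both are no support. With ATRA edgeR and DESeq2 also called 0, and 2 had an unadjusted p under 0.05. TNFRSF10A, which encodes the TRAIL receptor DR4, had no read in any untreated or ATRA library, 275 to 304 normalized reads with DAC and 337 to 402 with DAC + ATRA, at least 105-fold and 134-fold higher than a floor of 3 reads per library. TNFRSF10B, which encodes DR5, had 0.610 ± 0.528 in untreated cells, 13.6 ± 2.50 with DAC and 20.3 ± 10.4 with DAC + ATRA. These are given as values with no test. A retained intron of TNFRSF1A fell by 0.66 with DAC (adjusted p = 0.00240). The list medians were the same with TNFRSF10A at its bound.

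Of 15 genes that regulate family members 10 were tested, with 17 transcripts. With DAC 3 passed higher and 2 lower, or 5 of 17 where 33.5% of all passed, and with ATRA 0 higher and 2 lower, where 6.97% of all passed. With DAC + ATRA 3 passed in each direction, or 6 of 17 where 41.6% of all passed. The list median was 0.25 with DAC, 0.06 with ATRA and 0.36 with both. JUN had 1281 ± 118 normalized reads in untreated cells, 4228 ± 556 with DAC, 755 ± 150 with ATRA, and 3404 ± 346 when both were given. It rose by 1.72 with DAC (adjusted p = 5.30e-11) and fell by 0.78 with ATRA (adjusted p = 9.94e-05). ATF4, a factor of the integrated stress response, rose by 0.88 with DAC (adjusted p = 1.23e-05), and TRIB3 fell by 0.47 with ATRA (adjusted p = 0.00427). E2F1 fell by 0.40 with DAC (adjusted p = 0.00210) and by 0.87 with DAC + ATRA (adjusted p = 6.55e-08).

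**Figure D4:**
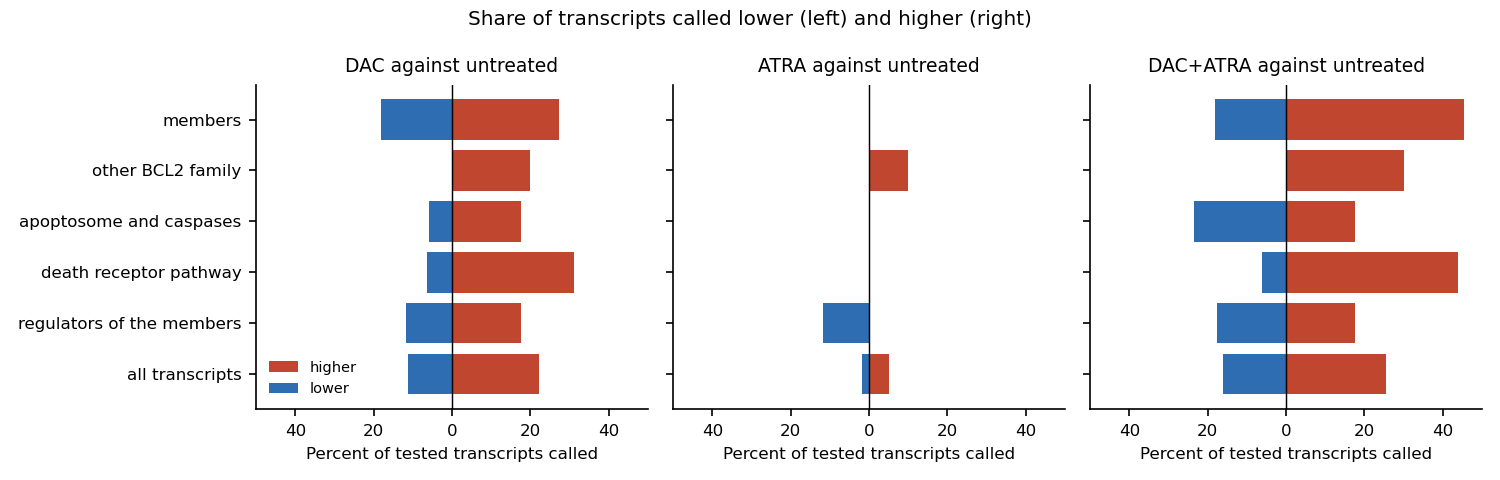
Percent of the tested transcripts called lower (to the left) and higher (to the right) against untreated, for the 11 family transcripts, the 4 gene lists (10, 17, 16 and 17 transcripts) and all 19373 transcripts. With ATRA 0 of the 11 family transcripts are called, and with DAC + ATRA 5 are higher and 2 lower.

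The genes whose levels followed a family gene most closely over the 12 libraries were named from symbols with a mean of at least 100 normalized reads. For BCL2 these were HMGB1 (Pearson r = 0.991) and GINS1 (0.987), and HMGB1 had means of 1031, 544, 1003 and 508 in untreated, DAC, ATRA and DAC + ATRA cells. For BAX they were RAB11B (0.965) and SP2 (0.962), for BCL2L1 ASB6 (0.978) and EFHD2 (0.974), for MCL1 GGA1 (0.949) and RP1L1 (0.934), and for BAK1 the noncoding RNAs LINC00174 (0.967) and RP5-1092A3.4 (0.958). The 12 points are 4 groups of 3 libraries from the same fit of depth, so each value mostly describes shared differences between groups.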

How the data were processed

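RNA-seq of U937 cells was used, with 3 libraries in each of 4 groups (untreated, DAC, ATRA, DAC + ATRA). According to the study's methods the authors used FastQC for read quality, STAR for alignment (hg38), htseq-count for counting and DESeq2 for tests of protein-coding transcripts. The libraries were strand-specific. Versions, counting mode and the strand setting of the counting are not given in the sources used here. The deposited values are a normalized signal per transcript, the read count of a library divided by 1 size factor, and 100% of values were whole reads within 0.01 of a read once multiplied by it. The columns name the group of a library but not its replicate, so libraries are called by the number in the column header. They held 8042435 to 10683593 reads, so values of a few reads are imprecise.

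The family genes and the lists were chosen with earlier results of these data known. Transcripts of any biotype reaching 10 normalized reads in 3 or more libraries were fitted in limma 3.58.1 (trend and robust) on log2(value + 1) over all 12 libraries, with Benjamini-Hochberg adjustment within each of 6 comparisons and a threshold of 0.01. This differs from the study in the test and in keeping noncoding transcripts. The leading transcript of a gene is the one with the highest mean. All transcripts tested of the 10 genes were described. From each list the 2 highest and 2 lowest called transcripts per comparison with untreated could be named, and for called family genes the 2 symbols with the highest Pearson r. Bases of a transcript's own were taken from GENCODE 44. Alternatives were edgeR 4.0.16 (TMM or the deposited size factors) and DESeq2 1.42.0 on the recovered reads, library-size scaling, no filter, at least 10 reads in every library, protein-coding transcripts only, values summed by symbol, a pseudocount of 0.1, only the groups compared, a threshold of 0.05 and leaving out each library. Limma with TMM scaling and edgeR without library 6 were added after the data were seen. The scripts were tested on simulated data. Some genes of the lists are not reported here by name.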

Additional observations from a re-analysis of the deposited data

Results flagged for a closer look

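BIK is listed because its response to DAC differed between cells without and with ATRA: it rose by 2.11 on the log2 scale with DAC against untreated and by 0.65 with DAC + ATRA against ATRA, and the interaction was -1.46 (limma adjusted p = 0.000127). No transcript of the 10 family genes had an interaction past the threshold, and groups of 3 libraries are too small to be screened for single outlying libraries.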

How the results depend on the processing

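No paired analysis was possible because the columns of the matrix carry no replicate number. The counts of called family transcripts were 0 under every alternative run for ATRA against untreated and for the interaction. With DAC against untreated the 5 calls became 3 under library-size scaling, 3 without a filter, 2 in edgeR without library 6, and 2 to 5 with 1 library left out, being 2 without untreated library 2 or 3 or DAC library 6 and 3 without DAC library 4. With DAC + ATRA against DAC the 0 calls became 1 in edgeR with TMM, 1 in edgeR with the deposited size factors, 1 with only the groups compared and 2 at a threshold of 0.05. Against ATRA the 4 calls became 6 in edgeR with the deposited size factors, without a filter and at 0.05, and 2 to 5 with 1 library left out, the 2 without DAC + ATRA library 10.

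Over the 4 lists the 17 calls with DAC became 27 without a filter and 32 at a threshold of 0.05, the 3 with ATRA became 5 at 0.05 and 2 with only the groups compared and without untreated library 1 or 2, and the 4 of DAC + ATRA against DAC became 7 at 0.05 and 0 to 6 with 1 library left out, being 6 without ATRA library 9, 2 without DAC library 4, 1 without DAC + ATRA library 10 and 0 without DAC + ATRA library 12. The 1 call of the interaction became 2 in DESeq2, with library-size scaling, with limma and TMM scaling, without a filter and at 0.05, and 1 to 2 with 1 library left out, the 2 without DAC library 5 or ATRA library 9. The other totals, of the family or of the 4 lists together, moved by less than 1.5 times. By direction, the 5 family transcripts higher with DAC + ATRA became 3 under library-size scaling and without untreated library 2 or 3 or DAC + ATRA library 10. They were also 3 with protein-coding transcripts only, where the retained introns of MCL1 and BAX were not tested and no coding call was lost. Within single lists the 4 calls of the apoptosome list with DAC became 6 in edgeR with TMM and 7 under library-size scaling, and its 0 with ATRA became 1 under library-size scaling. The cause of these shifts was not tested.

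For the leading transcripts, 48 log2 fold changes were refitted 1174 times in all. A call was lost in 36 and gained in 19, and no called value changed sign. The limits are depth, since BAK1, BBC3 and BID rest on few reads, 3 libraries per group from 1 line, and rows that hold only part of a gene.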
